A study of Homo sapiens with 72 samples.

Results

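The genes described here were 45 human genes of mitosis and cell division, 45 of the 56302 genes to which the quantified transcripts could be assigned. They were chosen by name, from what their proteins are known to do, but with earlier results of these data known. Counts of members set beside shares over all genes are therefore descriptions and no test of the list. The genes fell into 8 roles: mitotic kinases (6 genes), spindle checkpoint proteins (3), spindle and microtubule proteins (8), centromere and kinetochore proteins (14), chromosomal passenger proteins (3), cytokinesis proteins (3), proteins of sister chromatid cohesion, separation and decatenation (6), and the transcription factor FOXM1 with the proliferation antigen MKI67 (2). All 45 passed the filter on low counts and were among the 20136 genes tested. They were measured by poly(A) RNA sequencing in PEO1 cells, an established high-grade serous ovarian cancer line.

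All cells came from this single line and received either rucaparib, an inhibitor of PARP enzymes that is itself fluorescent, at 8.5 µM or DMSO as vehicle, for 2 or 24 h. Vehicle was the unsorted culture given DMSO, and RucTotal the unsorted culture given rucaparib. RucLow and RucHigh were rucaparib-treated cells sorted by drug fluorescence into the bottom and the top 20%. Each of the 8 combinations of group and time had 3 biological replicates with 3 libraries each, which were summed into 24 samples, and the sorted cells had passed through a cell sorter that the unsorted cells had not.

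As background, a dividing cell builds most of these mRNAs late, in G2 and mitosis. The kinases AURKA, PLK1 and TTK drive centrosome maturation, spindle assembly and checkpoint signalling, the kinetochore couples each centromere to spindle microtubules, and the checkpoint holds anaphase back until all chromosomes are attached. The chromosomal passenger complex corrects wrong attachments, PRC1, ECT2 and ANLN organise the central spindle and the contractile ring, and separase (ESPL1), freed from securin (PTTG1), cuts cohesin so that chromatids part. In bulk RNA of this kind, a smaller share of cells in G2 and mitosis and less of each mRNA per cell cannot be told apart.

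The 72 libraries held 17391033 to 38899905 estimated reads, with a median of 33431403.5, and the 45 genes took 54359 to 183625 reads of a library. The lineage of PEO1 was visible, with 11 of 12 epithelial and serous ovarian genes above 1 TPM (reads scaled by transcript length and by library) in the median sample, SOX17 being the exception, whereas 9 of 12 markers of leukocytes, endothelium and fibroblasts had a median under 0.1 TPM and CD68, CDH5 and COL1A1 one above 1 TPM. Replicate 1 of Vehicle at 2 h stood apart, since the 45 genes took 0.337% of its gene-matched reads against 0.475% and 0.505% in replicates 2 and 3. Mean transcript length, weighted by reads, ran from 2255 to 3299 bases over the libraries, and 18 of them lay under 2800 bases.

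Per unit of length, in TPM, the members spanned a wide range in Vehicle at 24 h. UBE2C, the ubiquitin-conjugating enzyme of the anaphase-promoting complex, was the most abundant at 250.3 ± 9.79 TPM (SD, n = 3), followed by BIRC5 (survivin) at 183 ± 8.6 TPM and TOP2A, the decatenating topoisomerase, at 169.6 ± 9.76 TPM. TPX2, which activates AURKA on the spindle, reached 141 ± 23.9 TPM, and AURKA and PLK1 79.5 ± 11.1 and 81.5 ± 6.81 TPM. ESPL1 and the kinetochore motor CENPE were the lowest, at 12.7 ± 1.00 and 13.4 ± 1.73 TPM.

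Promoters of mitotic genes are known for the cell cycle genes homology region (CHR), which binds complexes built on MuvB, and for CCAAT boxes, which bind NF-Y. In windows from 250 bases before to 50 bases after the start given by RefSeq (GRCh38.p14), the CHR, spelled TTTGAA or in its other form as TTCGAA and searched on both strands, stood in 26 of the 35 members with a window, or 74.3%, against 16.6% of 27305 genes, taking the first window listed for each gene. CCAAT, also on both strands and counted apart from any overlap, stood in 26 of 35 members, or 74.3%, against 35.7% of genes, and both kinds in 20 members (57.1%) against 6.58% of genes. AURKA, BIRC5, BUB3, CENPM, FOXM1, KNL1, MIS18A, TPX2, TTK and UBE2C were not matched. The windows below, 5′ to 3′ on the strand of the gene, show 4 members that fell in unsorted cells at 24 h and carry both kinds of letters (PLK1, chr16:23678639-23678938, plus strand. BUB1, chr2:110678014-110678313, minus strand. DLGAP5, chr14:55191536-55191835, minus strand. TOP2A, chr17:40417847-40418146, minus strand), CENPE, which fell and carries neither (chr4:103198294-103198593, minus strand), and AURKB, which did not pass the test and carries CCAAT alone (chr17:8210176-8210475, minus strand). Capitals mark both CHR spellings and the CCAAT box on either strand.
PLK1: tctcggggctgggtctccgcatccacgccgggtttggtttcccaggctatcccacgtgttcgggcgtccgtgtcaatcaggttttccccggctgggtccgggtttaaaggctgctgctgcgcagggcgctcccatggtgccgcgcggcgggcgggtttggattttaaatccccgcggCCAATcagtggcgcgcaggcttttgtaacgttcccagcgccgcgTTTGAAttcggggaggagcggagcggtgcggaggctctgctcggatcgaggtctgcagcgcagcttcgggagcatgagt
BUB1: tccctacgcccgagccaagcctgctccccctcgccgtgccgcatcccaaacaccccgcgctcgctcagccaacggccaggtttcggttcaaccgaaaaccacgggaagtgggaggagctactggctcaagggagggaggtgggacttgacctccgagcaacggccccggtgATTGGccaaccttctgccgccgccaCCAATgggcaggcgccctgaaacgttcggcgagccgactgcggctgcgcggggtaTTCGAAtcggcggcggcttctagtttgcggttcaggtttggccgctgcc
DLGAP5: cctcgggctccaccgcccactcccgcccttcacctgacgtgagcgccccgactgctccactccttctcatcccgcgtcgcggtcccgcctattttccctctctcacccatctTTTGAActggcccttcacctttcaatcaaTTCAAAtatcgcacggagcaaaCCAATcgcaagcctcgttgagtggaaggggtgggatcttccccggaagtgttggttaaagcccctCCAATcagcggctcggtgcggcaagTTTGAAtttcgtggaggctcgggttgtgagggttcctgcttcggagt
TOP2A: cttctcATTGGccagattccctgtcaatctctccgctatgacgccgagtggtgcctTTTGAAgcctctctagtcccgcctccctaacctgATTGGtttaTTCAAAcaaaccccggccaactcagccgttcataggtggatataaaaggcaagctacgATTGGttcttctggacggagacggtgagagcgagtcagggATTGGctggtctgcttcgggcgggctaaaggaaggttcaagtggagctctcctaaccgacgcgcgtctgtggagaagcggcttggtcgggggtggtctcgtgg
CENPE: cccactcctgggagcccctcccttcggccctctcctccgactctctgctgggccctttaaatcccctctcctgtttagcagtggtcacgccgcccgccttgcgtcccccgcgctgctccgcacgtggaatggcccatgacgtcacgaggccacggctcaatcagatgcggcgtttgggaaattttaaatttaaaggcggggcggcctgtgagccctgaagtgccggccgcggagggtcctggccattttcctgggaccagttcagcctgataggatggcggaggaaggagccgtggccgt
AURKB: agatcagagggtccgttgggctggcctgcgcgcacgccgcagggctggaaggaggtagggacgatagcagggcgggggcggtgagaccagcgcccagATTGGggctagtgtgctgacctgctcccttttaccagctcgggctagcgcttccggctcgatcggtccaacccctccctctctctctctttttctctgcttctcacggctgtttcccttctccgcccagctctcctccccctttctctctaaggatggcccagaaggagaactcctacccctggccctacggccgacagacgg
In PLK1 the TTTGAA began 29 bases and the CCAAT 73 bases before the start. Such matches are letters in a window and were not measured as bound sites. The AURKB window lay inside the gene as GENCODE places it, with the first base of the gene at chr17:8210600. It therefore did not cover the sequence before that base.

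Rucaparib for 24 h lowered 9 of the 45 genes in unsorted cells, and none rose. These were the kinases PLK1 and BUB1, the spindle proteins DLGAP5 and ASPM, the kinetochore proteins CENPE and CENPF, the cytokinesis factor ECT2, the cohesin protector SGO2 and TOP2A. Over all genes, 1.15% were called lower in this comparison and 2.2% higher. The median log2 fold change of the 45 genes was -0.53, beside 0.03 over all genes tested, and 36 of 45 lay below 0. With the replicate number as a block, 29 members were called lower and none higher, beside 10.8% of genes lower and 13.2% higher, with a median of -0.58. All 3 RucTotal samples lay below all 3 Vehicle samples for 28 of 45 members, whereas 11.2% of genes tested showed that order. For AURKB alone among the members all 3 RucTotal samples lay above, beside 13.4% of genes. Lower in each of the 3 replicates were 32 of 45 members, beside 25.6% of genes. The calls depended on the fit, since only the Vehicle and RucTotal samples of 24 h left none past the threshold (29 with an unadjusted p under 0.05), and a per-gene offset for effective transcript length left 2, beside 0.223% of genes lower and 0.387% higher. Without replicate 1, 2 or 3 in all groups, 7, 0 and 20 members were called, and with the block 23, 3 and 29. No share over all genes is given beside these counts, so they describe the stability of the calls alone. The edgeR quasi-likelihood test with Benjamini-Hochberg adjustment over all genes was used here and for every adjusted p below.

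**Figure D1:**
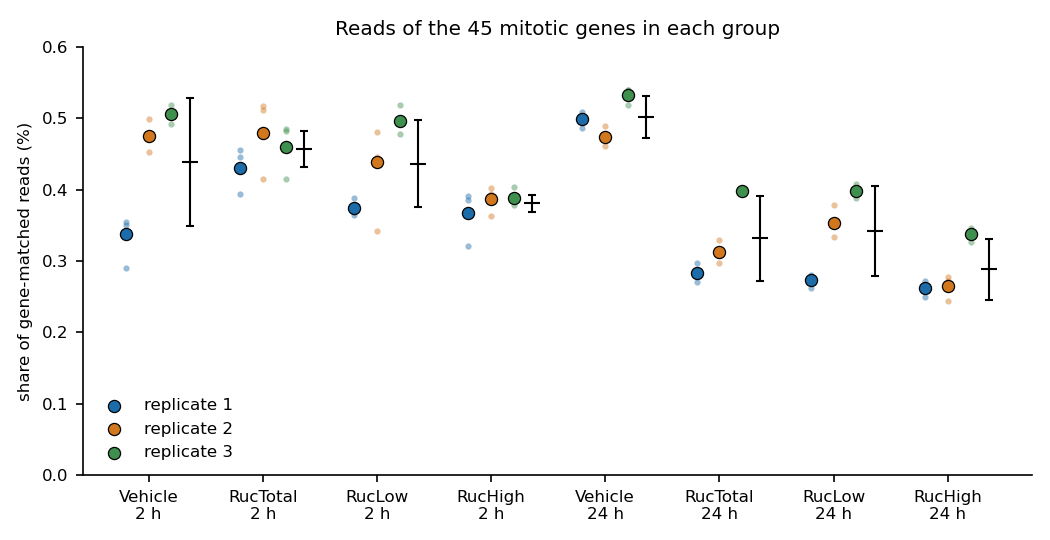
Share of gene-matched reads (%) taken by the 45 mitotic genes, by group and time. Large points are the 3 replicates, small points their 3 libraries, and bars the mean ± SD over replicates. RucTotal at 24 h (0.332 ± 0.060%) lay below Vehicle at 24 h (0.502 ± 0.029%), and replicate 1 of Vehicle at 2 h lay below the other two.

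Among the mitotic kinases, 2 of 6 fell and 4 did not pass (5 of 6 fell with the block), with a median log2 fold change of -0.76. PLK1, which drives mitotic entry and spindle pole maturation, stood at 158, 155 and 189 CPM (reads scaled by library size) in Vehicle replicates 1, 2 and 3 at 24 h and at 63.1, 75.9 and 94.7 CPM in RucTotal. The groups did not overlap, and each treated replicate lay well under its control. The log2 fold change was -1.10 ± 0.23 (SE; adjusted p = 0.017, with the block 0.000116). BUB1, the kinase that recruits shugoshins and checkpoint proteins to centromeres, stood at 80.5, 85.1 and 106 CPM in Vehicle and at 19.04, 28.7 and 46.8 CPM in RucTotal, the largest change of any member at -1.52 ± 0.39 (adjusted p = 0.040, with the block 0.000156). Replicate 3 of RucTotal was the least lowered.

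AURKA, the centrosomal kinase of spindle assembly, lay at 107, 109 and 121 CPM in Vehicle and 48.02, 67.9 and 72.7 CPM in RucTotal. The 3 treated samples lay below the 3 controls, yet the change of -0.84 ± 0.25 did not pass without the block (adjusted p = 0.068) and did with it (adjusted p = 0.0020). AURKB, the kinase of the chromosomal passenger complex, went the other way when all its transcripts were summed. It went from 41.1, 38.5 and 39.95 CPM to 45.9, 49.7 and 43.1 CPM. The log2 fold change of 0.22 ± 0.16 did not pass (adjusted p = 0.42, with the block 0.32). TTK and NEK2 had log2 fold changes of -0.69 ± 0.28 and -0.49 ± 0.17 that passed only with the block (adjusted p = 0.0061 and 0.018).

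None of the 3 spindle checkpoint proteins passed, and 1 of 3 fell with the block. BUB1B (BUBR1), a subunit of the mitotic checkpoint complex, stood at 126, 109.6 and 136 CPM in Vehicle and at 66.4, 63.8 and 105 CPM in RucTotal (log2 fold change -0.66 ± 0.21, adjusted p = 0.086, with the block 0.0011). BUB3, its binding partner, read 129, 118 and 119 CPM in Vehicle and 129, 124 and 116 CPM in RucTotal, the groups overlapping at a log2 fold change of 0.01 ± 0.10 (adjusted p = 0.95). MAD2L1 (MAD2) differed by 0.05 ± 0.12 on the log2 scale (adjusted p = 0.82).

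Of the 8 spindle and microtubule proteins 2 fell, and 7 fell with the block, with a median of -0.85. ASPM, which focuses spindle poles, dropped from 79.4, 99.2 and 83.9 CPM in Vehicle to 19.03, 40.6 and 40.1 CPM in RucTotal (log2 fold change -1.40 ± 0.28, adjusted p = 0.013). DLGAP5, which stabilises kinetochore fibres, stood at 97.9, 104 and 122 CPM and then at 35.8, 41.4 and 59.3 CPM (log2 fold change -1.25 ± 0.26, adjusted p = 0.017, with the block 7.68e-05). In both genes the highest treated sample lay far under the lowest control. TPX2 lay at 365, 354 and 411 CPM in Vehicle and 253, 279.8 and 335 CPM in RucTotal, lower in all 3 replicates but at a log2 fold change of only -0.38 ± 0.18 (adjusted p = 0.21, with the block 0.020). TACC3, which bundles kinetochore fibres with clathrin, read 171, 146 and 112 CPM in Vehicle and 157, 178 and 97.3 CPM in RucTotal, with overlapping groups (log2 fold change 0.01 ± 0.30, adjusted p = 0.99). HMMR, NUSAP1, CKAP2 and CKAP2L ranged from -1.01 to -0.52 and passed only with the block.

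The 14 centromere and kinetochore proteins were split. CENPE and CENPF fell, CENPA, KNL1, NDC80 and NUF2 joined them with the block, and the other 8 passed in neither fit. CENPE, the kinesin of chromosome congression, stood at 49.3, 51.2 and 51.1 CPM in Vehicle and 16.8, 27.2 and 33.9 CPM in RucTotal (log2 fold change -0.96 ± 0.23, adjusted p = 0.031). CENPF, a large protein of the outer kinetochore, stood at 123, 123 and 133 CPM and then at 51.2, 60.1 and 90.8 CPM (log2 fold change -0.90 ± 0.19, adjusted p = 0.017). Of the NDC80 complex, the microtubule coupler, NDC80 and NUF2 had log2 fold changes of -0.64 ± 0.19 and -0.53 ± 0.17 (adjusted p with the block 0.011 and 0.012), SPC25 -0.28 ± 0.16 and SPC24 0.01 ± 0.16. With the transcript length of each sample added to the block, all 4 subunits were called lower (adjusted p = 0.012, 0.022, 0.024 and 0.046). SPC24 read 48.3, 42.3 and 45.7 CPM in Vehicle and 52.9, 47.9 and 36.5 CPM in RucTotal, above its control in 2 replicates and below it in replicate 3. CENPM and MIS18A, of the inner centromere and of CENPA loading, had the highest values, 0.38 ± 0.22 and 0.29 ± 0.20 (adjusted p = 0.29 and 0.37). The differences between members were not themselves tested.

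Of the chromosomal passenger proteins none of 3 passed, and CDCA8 (borealin) and INCENP fell with the block. CDCA8 lay at 91.6, 90.2 and 99.4 CPM in Vehicle and 42.4, 54.2 and 68.1 CPM in RucTotal, without overlap (log2 fold change -0.77 ± 0.28, adjusted p = 0.11, with the block 0.0043). BIRC5, the third subunit, read 294, 310.3 and 314 CPM and then 277, 314 and 247 CPM, with overlap (log2 fold change -0.13 ± 0.15, adjusted p = 0.63). With the transcript length of each sample added to the block, BIRC5 passed as lower (adjusted p = 0.018) and CDCA8 and INCENP did not (adjusted p = 0.054 and 0.15), and differences between the subunits were not tested.

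Of the cytokinesis genes 1 of 3 fell, and all 3 fell with the block. ECT2, the exchange factor that activates RhoA at the cleavage plane, stood at 164, 155 and 175 CPM in Vehicle and 85.7, 92.8 and 127 CPM in RucTotal (log2 fold change -0.69 ± 0.16, adjusted p = 0.028). ANLN (anillin), the scaffold of the contractile ring, stood at 221, 188 and 243 CPM and then at 96.3, 91.8 and 179 CPM, with replicate 3 the least changed (-0.83 ± 0.29, adjusted p = 0.10, with the block 0.0010). PRC1, the bundler of central spindle microtubules, stood at 196, 184 and 213 CPM and then at 121, 132 and 161 CPM (-0.52 ± 0.18, adjusted p = 0.096, with the block 0.0018).

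Among the genes of cohesion, separation and decatenation, TOP2A and SGO2 fell and ESPL1 fell with the block, whereas PTTG1, UBE2C and SGO1 passed in neither fit. TOP2A stood at 453, 434 and 481 CPM in Vehicle and 196, 231 and 287 CPM in RucTotal (log2 fold change -0.94 ± 0.21, adjusted p = 0.023). SGO2, which guards centromeric cohesin, stood at 34.7, 34.6 and 35.02 CPM and then at 14.1, 19.4 and 22.1 CPM (-0.91 ± 0.22, adjusted p = 0.034). Its paralogue SGO1 read 24.3, 23.2 and 25.2 CPM in Vehicle and 20.4, 24.3 and 26.5 CPM in RucTotal, around the same level (-0.03 ± 0.15, adjusted p = 0.93).

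FOXM1, the transcription factor that activates many G2/M genes, lay at 323, 309 and 365 CPM in Vehicle and 217, 240.1 and 311 CPM in RucTotal, a log2 fold change of -0.38 ± 0.21 (adjusted p = 0.28, with the block 0.020). MKI67 lay at 197, 206 and 265 CPM in Vehicle and at 65.1, 85.3 and 200.4 CPM in RucTotal, with replicate 3 reaching into the range of the controls (-0.93 ± 0.38, adjusted p = 0.15, with the block 0.011).

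**Figure D2:**
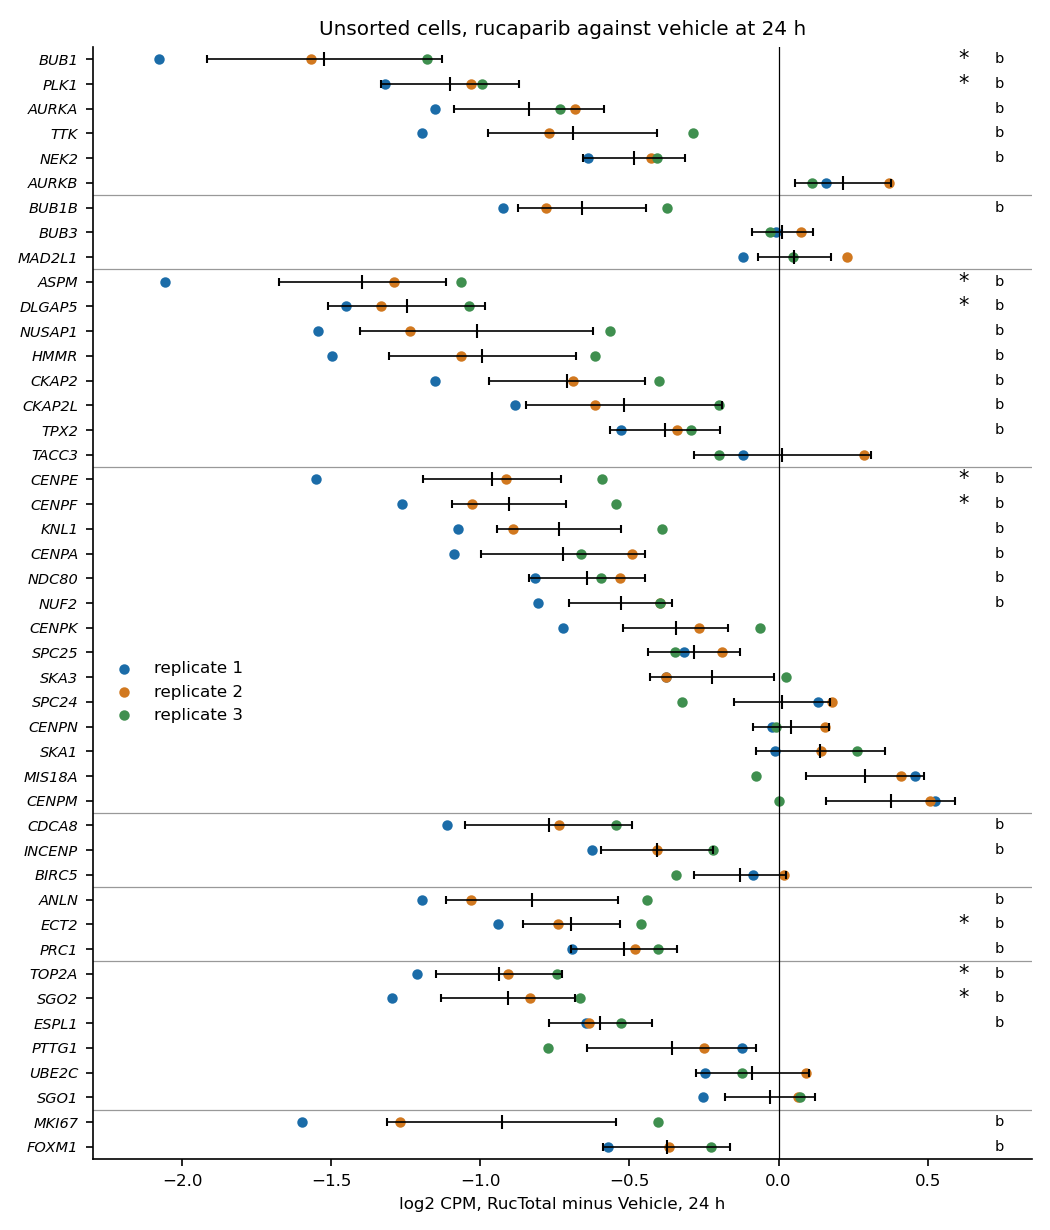
Difference in log2 CPM between RucTotal and Vehicle at 24 h for each of the 45 genes, grouped by role. Coloured points are replicates 1, 2 and 3, black ticks with bars the fitted log2 fold change ± SE, * marks the 9 genes called lower, and b the 29 called lower with the replicate block. In 32 of 45 members (25.6% of all genes) the 3 replicates lie left of 0, and AURKB and CENPM lie right of it.

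The size of the difference varied between replicates. The median difference of the 45 genes in log2 CPM was -0.81 in replicate 1, -0.49 in replicate 2 and -0.40 in replicate 3, with 41, 33 and 39 members below 0. Over all genes tested the medians were 0.00, 0.03 and 0.02, with 49.3, 47.7 and 47.2% of genes below 0. Mean transcript length moved with treatment in replicates 1 and 2, at 2746 and 2711 bases in RucTotal against 3120 and 3107 bases in Vehicle, but not in replicate 3, at 3229 against 3231 bases. The share of reads from the mitochondrial genome was also lower in RucTotal, at 0.427, 0.371 and 0.539%, than in Vehicle, at 1.55, 0.989 and 0.686%, without overlap, and its part in the differences of the members was not tested.

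The members with long transcripts had the lower fold changes. Across the 45 genes, which share libraries, the fitted log2 fold change correlated with the log2 of the member's mean transcript length at r = -0.53 (rho -0.50), and within replicates at r = -0.58, -0.60 and -0.26. Of the 22 members with the longer transcripts 8 fell, with a median log2 fold change of -0.72, and of the other 23 members 1 fell, with a median of -0.28. No share over genes of like transcript length is given beside counts in these sets, so they describe the members alone. With the replicate number and the mean transcript length of each sample both in the fit, 24 members were called lower and none higher, 13 of 22 and 11 of 23, with medians of -0.58 and -0.45, beside 2.74% of all genes tested called lower and 3.12% higher. With that covariate but no block, 3 members were called lower, beside 0.596% of genes lower and 1.33% higher. The per-gene offset for effective length left the relation to length nearly as steep, at r = -0.48 (rho -0.47), with medians of -0.60 for the longer and -0.24 for the other members. In the fit with the block and the covariate PLK1, BUB1, DLGAP5, ASPM, CENPE, CENPF, ECT2, SGO2 and TOP2A remained past the threshold, whereas 9 members called with the block alone no longer passed (TTK, NEK2, TPX2, CKAP2, CKAP2L, INCENP, CDCA8, FOXM1 and MKI67, with adjusted p from 0.051 to 0.32). Another 4, SPC24, SPC25, BIRC5 and PTTG1, passed as lower (adjusted p = 0.046, 0.024, 0.018 and 0.0069). Vehicle alone showed the opposite slope between its times, with r = 0.73 for 24 h against 2 h, where lengths rose from between 2729 and 3078 bases to between 3107 and 3231 bases.

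**Figure D3:**
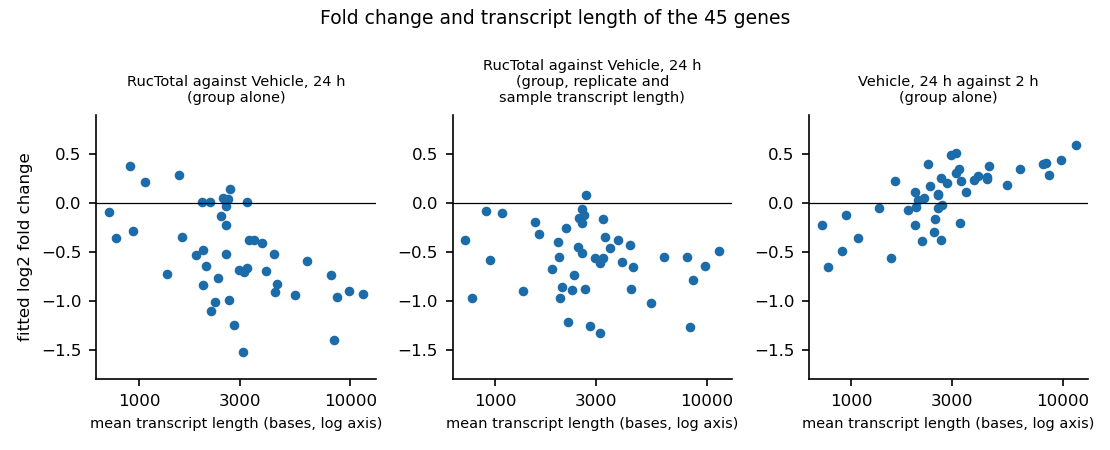
Fitted log2 fold change of each of the 45 genes (y axis) against the mean length in bases of the transcripts its reads were assigned to (x axis, log scale). The left panel shows RucTotal against Vehicle at 24 h (r = -0.53), the middle panel the same with replicate and sample transcript length in the fit (r = -0.20, against -0.48 with the effective length offset, not drawn), and the right panel Vehicle at 24 h against 2 h (r = 0.73).

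The estimated makeup of BUB1 also differed. The processed transcript BUB1-210, of 1380 bases, made up 22.2 ± 2.21% of the TPM of BUB1 in Vehicle at 24 h (SD, n = 3) and 41.2 ± 10.9% in RucTotal, and protein-coding transcripts made up 75.2 ± 2.64% and 55.4 ± 10.8%. The share of BUB1-210 did not follow treatment over the other groups. It was 21.7 ± 6.58% in RucLow and 25.1 ± 6.83% in RucHigh at 24 h, and 39.1 ± 12.3% in Vehicle at 2 h. For PLK1, protein-coding transcripts held 95.9 ± 0.602% and 93.4 ± 3.64% of the TPM. For AURKB, the retained-intron transcript AURKB-205, of 467 bases, held 18.1 ± 10.6% in Vehicle at 24 h and 41.7 ± 19.9% in RucTotal. Protein-coding transcripts of AURKB held 73.3 ± 11.3% and 51.7 ± 21.5%. Its summed counts therefore do not describe its coding mRNA alone. The share of AURKB-205 was 32.9 ± 24.7% in Vehicle at 2 h. The shares of transcripts are estimates of the quantifier, and no test was run on them. For 9 members with pseudogene copies named after them, the copies took at most 0.947% of the member's reads.

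By promoter letters, the 26 members with TTTGAA or TTCGAA had a median log2 fold change of -0.68, with 7 called lower and 20 with the block, and the 9 members without had a median of -0.36, with 2 called lower and 4 with the block. Among the 9, the window of TACC3 ended before the gene as GENCODE places it, and those of AURKB, CKAP2 and SGO2 lay inside. Some windows of the 26, such as those of PLK1 and CENPA, also lay inside. Letters near other starts of these genes were not searched. The difference between the sets with and without letters was not tested.

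At 2 h the same treatment gave no call. RucTotal against Vehicle had 0 of 45 members past the threshold with edgeR, 0 with DESeq2 and 1 with an unadjusted p under 0.05, beside 0.0199% of genes called lower and 0.00497% higher. With the block 0 passed, beside 0.114% and 0.0298% of genes. The median log2 fold change was 0.08, and without replicate 1, whose Vehicle sample stood apart, it was -0.05. PLK1 read 123, 172 and 188 CPM in Vehicle and 146, 172 and 177 CPM in RucTotal, and AURKA 67.9, 144 and 134 CPM against 107, 113 and 119 CPM. In both genes the controls spanned the treated samples. The highest fitted value was that of the kinetochore subunit CENPK, 0.38 ± 0.18 (adjusted p = 0.74), and the lowest that of CENPN, -0.20 ± 0.13 (adjusted p = 0.89). Those were also the members whose samples did not overlap between the groups, 1 higher and 1 lower of 45, beside 3.86% and 4.65% of genes.

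The change of the rucaparib effect from 2 to 24 h was tested as an interaction. No member passed with edgeR, beside 0.0397% of genes called lower and 0.0993% higher, although 25 members had an unadjusted p under 0.05. DESeq2 called 9 members lower, beside 1.81% of the genes to which it gave an adjusted p lower and 3.63% higher. The median was -0.71 on the log2 scale. With the replicate block 28 members were called lower and none higher, beside 8.99% and 9.06% of genes, with BUB1 at -2.05 (adjusted p = 0.0016), DLGAP5 at -1.40 (adjusted p = 0.0018) and PLK1 at -1.17 (adjusted p = 0.0031). Leaving out a replicate changed these counts. Without replicate 1, whose Vehicle sample at 2 h was low, the median was -0.42 and 0 members passed (3 with the block), without replicate 2 the count was 0 (0 with the block), and without replicate 3 it was 21 (26 with the block).

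Comparing 24 with 2 h inside each rucaparib group needs no Vehicle sample. PLK1 fell in all 3 groups. In RucTotal it went from 146, 172 and 177 CPM at 2 h to 63.1, 75.9 and 94.7 CPM at 24 h, in RucLow from 123, 166 and 193 CPM to 46.3, 81.5 and 94.9 CPM, and in RucHigh from 137, 138 and 134 CPM to 49.3, 60.04 and 77.0 CPM. No sample of 24 h reached a sample of 2 h in any group. The log2 fold changes were -1.08 ± 0.23 (adjusted p = 0.021), -1.12 ± 0.23 (adjusted p = 0.045) and -1.14 ± 0.23 (adjusted p = 0.046), whereas in Vehicle PLK1 differed by 0.05 ± 0.23 (adjusted p = 0.92).

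In RucTotal 5 members fell between the times, PLK1 with DLGAP5, ASPM, SGO2 and TOP2A, beside 0.745% of genes, and 26 fell with the block, beside 6.42% of genes lower and 5.88% higher. The number of calls without block depended on the replicates kept. It was 0 without replicate 2 (11 with an unadjusted p under 0.05), 7 without replicate 1 and 2 without replicate 3. The median log2 fold change without replicate 2 was -0.44, near the -0.46 of all replicates. In RucLow and in RucHigh 1 member fell, PLK1, beside 0.119% and 0.104% of genes, and with the block 8 and 15 fell, beside 1.06% and 1.26% of genes lower and 1.43% and 1.55% higher. In both sorted groups PLK1 did not pass without replicate 2 (0 members called), nor without replicate 3 (0 members called). None rose in any of the 3 groups. The medians were -0.46, -0.36 and -0.42 in RucTotal, RucLow and RucHigh. All 3 samples of 24 h lay below all 3 of 2 h for 25, 10 and 22 members, beside 10.6%, 5.99% and 7.11% of genes.

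Securin had the lowest fitted values over time in the sorted cells, and passed only with the block. PTTG1 stood at 81.4, 122 and 66.01 CPM in RucLow at 2 h and at 25.1, 46.3 and 41.4 CPM at 24 h, and in RucHigh at 104, 63.6 and 46.7 CPM and then at 26.01, 34.5 and 26.6 CPM. The log2 fold changes were -1.26 ± 0.29 and -1.30 ± 0.29 (adjusted p = 0.080 and 0.058, with the block 0.020 and 0.016). In Vehicle PTTG1 differed by -0.66 ± 0.28 (adjusted p = 0.26, with the block 0.11).

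AURKA followed the same course, at 83.4, 107 and 126 CPM in RucLow at 2 h and 37.4, 66.3 and 73.0 CPM at 24 h, and at 91.4, 97.9 and 94.2 CPM in RucHigh at 2 h and 40.1, 49.04 and 58.2 CPM at 24 h. The log2 fold changes were -0.84 ± 0.25 and -0.94 ± 0.25 and passed only with the block (adjusted p = 0.0098 and 0.0057). TPX2 differed by -0.38 ± 0.18 in RucLow and -0.42 ± 0.18 in RucHigh (adjusted p with the block 0.073 and 0.043). Mean transcript length in the sorted samples was 2736 to 3105 bases at 2 h and 2984 to 3142 bases at 24 h.

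**Figure D4:**
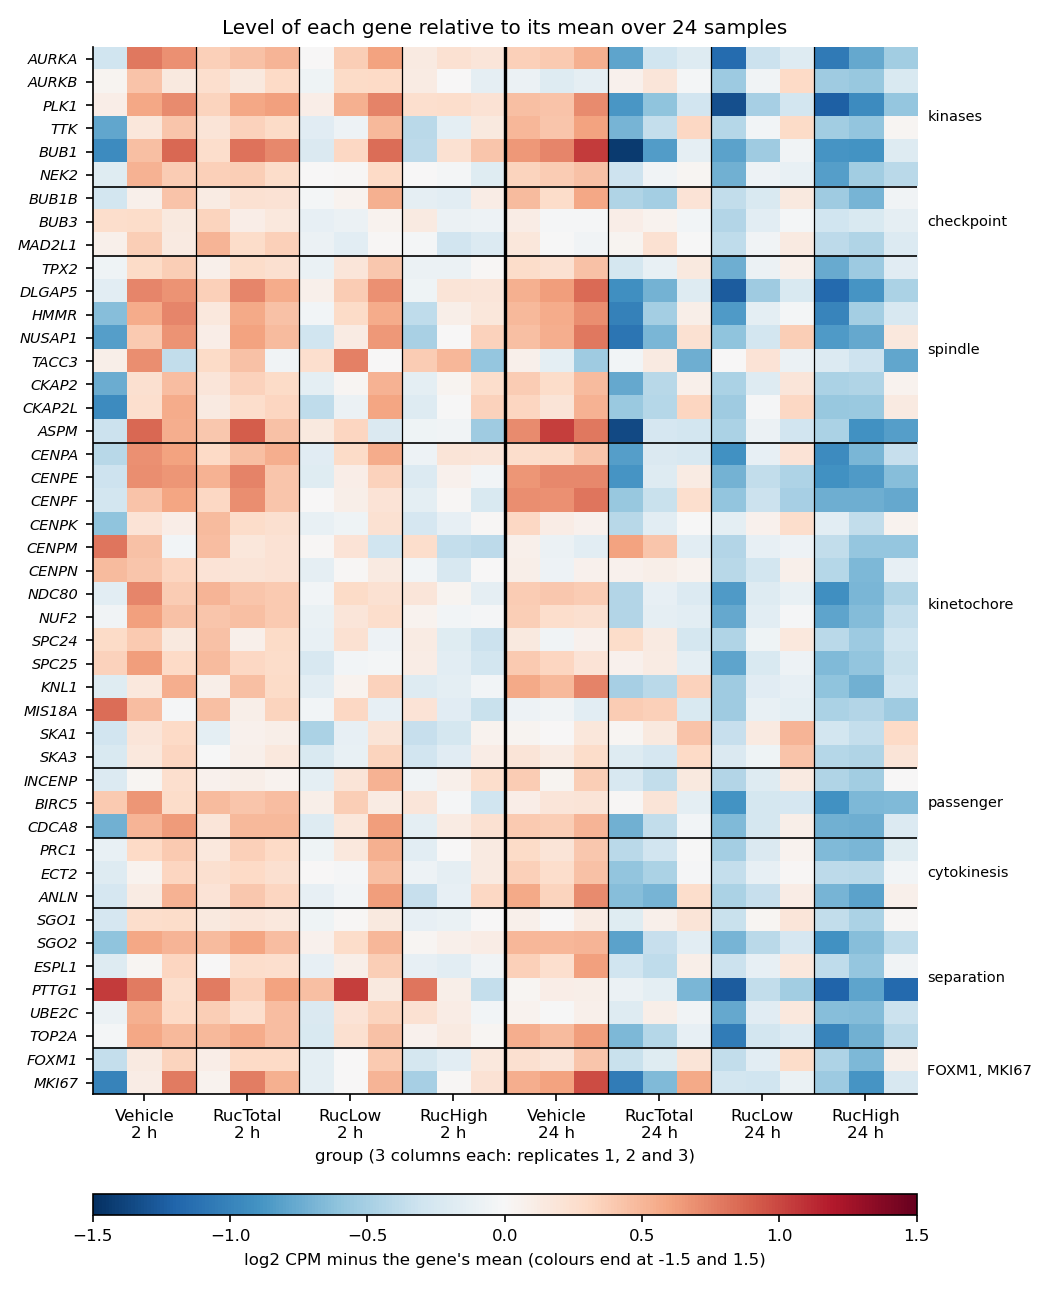
Level of each of the 45 genes (rows, grouped by role) in the 24 samples (columns, 3 replicates per group and time), as log2 CPM minus the gene's mean over all samples. At 24 h the Vehicle columns are mostly above and the rucaparib columns mostly below the mean, and replicate 3 of RucLow is the most mixed of the sorted columns of 24 h.

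Between RucHigh and RucLow, cells of high and low drug content from the same treated cultures, no member passed at 24 h. With edgeR 0 of 45 were called with or without the block, 2 had an unadjusted p under 0.05 (11 with the block), and DESeq2 called 0, beside 0% of genes called lower and 0.109% higher (0.0149% and 0.596% with the block). All 45 fitted values were below 0, with a median of -0.26 and a range from -0.46 to -0.03, beside a median of -0.01 over all genes tested. In replicate 1 the median difference was -0.03, with 31 of 45 members below 0, and in replicates 2 and 3 it was -0.46 and -0.24 with all 45 below 0. Members that share cells and libraries are not independent, so this common sign is 1 observation per replicate.

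AURKA read 37.4, 66.3 and 73.0 CPM in RucLow and 40.1, 49.04 and 58.2 CPM in RucHigh at 24 h, lower in RucHigh in replicates 2 and 3 (log2 fold change -0.26 ± 0.25, adjusted p = 1.00, with the block 0.82). TPX2 read 182, 285 and 319 CPM and 179, 208 and 269 CPM (-0.26 ± 0.18, adjusted p = 1.00, with the block 0.56). PLK1 differed by -0.26 ± 0.23 (adjusted p = 1.00, with the block 0.75). None of the 3 genes showed a difference larger than the spread between replicates. For proteins of sorted PEO1 cells, the paper reports several mitotic proteins, AURKA and TPX2 among them, as enriched in RucHigh. The values here are RNA, and the difference between RNA and protein was not tested.

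TACC3 and CENPF were the members whose 3 RucHigh samples all lay under the 3 RucLow samples at 24 h. That was 2 of 45 beside 3.52% of genes, a count near that share and therefore no result about the members. TACC3 read 163, 186 and 152 CPM in RucLow and 141, 129.9 and 94.1 CPM in RucHigh, the largest fitted difference at -0.46 ± 0.30 (adjusted p = 1.00, with the block 0.27). CENPF read 50.5, 61.004 and 53.9 CPM against 45.7, 45.8 and 44.5 CPM. Lower in all 3 replicates were 31 of 45 members, beside 16.5% of genes.

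At 2 h the gates differed in the same direction, again without a call. With edgeR 0 members passed, 0 had an unadjusted p under 0.05 and DESeq2 called 0, beside 0% of genes lower and 0.00497% higher. The median was -0.18, with 43 of 45 below 0. Replicate medians were 0.02, -0.13 and -0.36, with 20, 41 and 45 members below 0, beside 48.7, 48.1 and 50.3% of genes. The change of this difference from 2 to 24 h had a median of -0.08, with 0 members past the threshold, 0 with an unadjusted p under 0.05, and 0 with DESeq2 or the block. Among all genes 0% were called in either direction in that interaction.

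**Figure D5:**
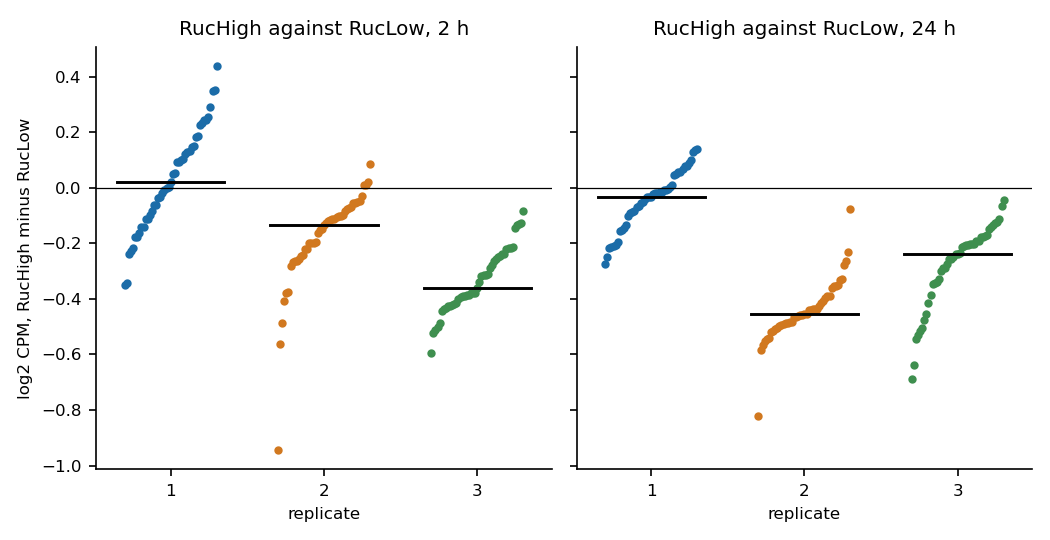
Difference in log2 CPM between RucHigh and RucLow for the 45 genes at 2 h (left) and 24 h (right), by replicate. Points are genes in ascending order and black lines the medians, which were 0.02, -0.13 and -0.36 at 2 h and -0.03, -0.46 and -0.24 at 24 h.

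Sorting itself was set beside the unsorted rucaparib culture, where the passage through the sorter and the choice of the outer gates cannot be told apart. At 2 h the mean of RucHigh and RucLow was lower than RucTotal for 1 member, MAD2L1, beside 1.17% of genes called lower and 1.24% higher. MAD2L1 read 129, 110.1 and 117 CPM in RucTotal, 85.8, 81.5 and 91.7 CPM in RucLow and 88.8, 74.6 and 79.0 CPM in RucHigh, with every sorted sample under every unsorted one (log2 difference -0.51 ± 0.10, adjusted p = 0.018). It did not pass when any replicate was left out (adjusted p = 0.054, 0.31 and 0.17 without replicates 1, 2 and 3), and without libraries under 2800 bases the difference was -0.17 (adjusted p = 0.44). With the block 7 of 45 members were lower, beside 8.31% of genes lower and 6.62% higher.

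At 24 h 5 members were lower in sorted cells, BIRC5, CENPM, MIS18A, SPC25 and CENPN, and 0 higher, beside 5.15% of genes lower and 4.32% higher. With the block there were 9, beside 13.9% of genes. BIRC5 read 277, 314 and 247 CPM in RucTotal, 147, 228 and 229.9 CPM in RucLow and 146, 172 and 173 CPM in RucHigh (log2 difference -0.62 ± 0.13, adjusted p = 0.0087). None of these 5 was called in RucTotal against Vehicle at 24 h with or without the block, although SPC25 and BIRC5 passed there as lower once transcript length was added to the block. The share of reads from the mitochondrial genome moved with the sort, at 0.371 to 0.539% in RucTotal and 1.77 to 4.68% in the sorted samples at 24 h, and at 0.880 to 1.28% and 2.03 to 3.62% at 2 h, without overlap, and its part in these differences was not tested. PLK1, BUB1 and AURKA differed between sorted and unsorted cells by -0.20 ± 0.20, 0.18 ± 0.34 and -0.23 ± 0.21 (adjusted p = 0.57, 0.79 and 0.55). The count was 0 without replicate 2, 1 without replicate 1 and 8 without replicate 3.

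In Vehicle no member passed between 24 and 2 h with edgeR (6 with an unadjusted p under 0.05) or with DESeq2, beside 0.0199% of genes called lower and 0.00497% higher. With the block ESPL1 was higher (0.35, adjusted p = 0.041) and CENPN lower (-0.39, adjusted p = 0.041), beside 4.6% and 4.81% of genes. With the transcript length of each sample added to the block, 0 members passed in either direction. The median was 0.11, and -0.05 without replicate 1. In replicate 1, 36 of 45 members had a higher value than in the low Vehicle sample of 2 h and 9 a lower one, beside 49.9% of genes lower.

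Genes of related function outside the 45 were counted in the same way. Over all genes, 1.15% were called lower and 2.2% higher in RucTotal against Vehicle at 24 h. With the block these shares were 10.8% and 13.2%. For RucTotal against Vehicle at 24 h, 4 of 23 other spindle and cytokinesis genes fell (13 with the block, median -0.40), led by DEPDC1 at -1.27 ± 0.26 (adjusted p = 0.015) and PSRC1 at -0.75 ± 0.19 (adjusted p = 0.034). Of 18 condensin and cohesin genes 1 fell, the condensin subunit NCAPD2 at -0.78 ± 0.20 (adjusted p = 0.036), with 7 lower and 2 higher under the block and a median of -0.26. Of 31 other kinetochore and centromere genes 0 passed, with 8 lower and 5 higher under the block and a median of -0.03. Of 18 anaphase-promoting complex genes 0 passed, with 3 lower and 3 higher under the block and a median of 0.01. Of 17 MuvB, DREAM and E2F genes 1 rose, LIN37 at 0.82 ± 0.17 (adjusted p = 0.016), with 3 lower and 3 higher under the block and a median of -0.14. Of 24 G1/S and replication licensing genes 0 passed, with 3 lower and 3 higher under the block and a median of 0.12. The counts of 3 lower and 3 higher under the block lay near the shares of all genes. CDC20, the activator of the anaphase-promoting complex and no member of the 45, fell from 2 to 24 h in RucTotal, RucLow and RucHigh, by -0.58 ± 0.14, -0.73 ± 0.14 and -0.74 ± 0.14 (adjusted p = 0.044, 0.040 and 0.034). These lists were set by function with earlier results of these data known, and their medians are descriptions beside a median of 0.03 over all genes tested.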

How the data were processed

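PEO1 RNA libraries were quantified by the authors with Salmon (version not given in the sources used here) after cutadapt 4.7 on GRCh38, per the submitters' processing notes, which also name DESeq2 1.44.0. The deposited transcript tables hold estimated counts, TPM, length and effective length. The kit marked strand and selected poly(A) RNA. The paper's text does not describe these RNA libraries.

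Of 257369 transcripts per table, 194437 were matched to GENCODE 29 and 11676 through a table of gene symbols, and 51256, holding 7.10 to 8.95% of reads, were not. Estimated counts were summed per gene and per biological replicate (3 libraries each, 0 identical, lowest chi-square per degree of freedom 5.85) and rounded. The 24 samples were fitted together by group with edgeR 4.0.16 (TMM, filterByExpr, quasi-likelihood, adjusted p under 0.05, R 4.3.3). CPM are TMM-scaled and log2 CPM used a prior count of 2. Replicates are described for the study as made on different days. Same-numbered samples deviated together from their group means at a median r of 0.29 (lowest -0.06, over 0.1 in 74 of 84 pairs). The block is therefore given beside results it changes. For different numbers the median was -0.12, which follows from centring each group on its mean and is no separate support. Alternatives were DESeq2 1.42.0, limma 3.58.1 on log2(TPM + 1), other filters, scalings, a length covariate and left-out samples. The comparisons of 24 with 2 h inside rucaparib groups, and leaving out replicates under the block, were added after seeing the data. The fit without the block was run on simulated independent counts. These held no replicate or transcript length effect, so the simulation cannot show how such effects move the calls.

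The 45 members and all lists were chosen with earlier results of these data known. Any member could be named, by role, and values in every sample were given for those past the threshold in RucTotal against Vehicle at 24 h, for the largest and smallest change of each role, and for AURKA and TPX2, with up to 2 genes per direction from each other list. Precision is limited by 3 replicates per group, and counting error is small at these depths.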

Additional observations from a re-analysis of the deposited data

Results flagged for a closer look

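One library of RucHigh at 2 h (replicate 1) stood apart from the other 8 of its group, since the 45 genes took 0.321% of its gene-matched reads. Its gap to the nearest library, as a share of the range of the group, was above the critical value of Dixon's test for 9 libraries. In that library the mean transcript length was 2594 bases. It was the single flag among the lowest and highest libraries of 8 groups, and chance flags about 1 in 20 groups of independent values. The 9 libraries of a group were 3 from each of 3 replicates, so that rate does not hold exactly for them. The difference between RucHigh and RucLow at 2 h had a median of -0.18, and of -0.26, -0.20 and -0.09 without replicates 1, 2 and 3.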

How the results depend on the processing

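The direction of the members' median was kept under every alternative for RucTotal against Vehicle at 24 h and for the comparisons of 24 with 2 h in rucaparib groups, but the number of calls was not stable. Counts here, and earlier counts of calls, signs or unadjusted p without a share of genes, describe the members alone. The share of all genes called also moved between fits. For genes called lower in RucTotal against Vehicle at 24 h it was 1.15% by group alone and 10.8% with the block. With the replicate block, members called were 29 for RucTotal against Vehicle at 24 h, 28 for the interaction of treatment and time, 7 and 9 for sorted against unsorted cells at 2 and 24 h, 2 for Vehicle over time, and 26, 8 and 15 for RucTotal, RucLow and RucHigh over time. The block with the transcript length covariate gave 24 for RucTotal against Vehicle at 24 h, 18 for the interaction, 18 for sorted cells at 2 h, 0 for Vehicle over time, and 31, 15 and 18 for RucTotal, RucLow and RucHigh over time, and the covariate alone 3 (RucTotal against Vehicle, 24 h), 8 (sorted, 2 h), 25, 5 and 11. The block changed no other count of calls.

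DESeq2 called 21 (RucTotal against Vehicle, 24 h), 9 (interaction), 2 (sorted, 2 h), 14, 5 and 9 (rucaparib groups over time). Limma on log2(TPM + 1) called 1 for RucTotal against Vehicle at 24 h, 0 and 1 for the sorted comparisons, and 1 and 0 for RucTotal and RucHigh over time. The effective length offset gave 2, 0 (sorted, 2 h) and 1 (RucTotal over time). Fitting only the groups compared gave 0 for RucTotal against Vehicle at 24 h, for sorted cells at 24 h and for all 3 rucaparib groups over time. At least 1 CPM in every sample gave 15, 3 (sorted, 24 h), 12 and 2 (RucTotal and RucHigh over time), and no filter 4 (interaction), 3 (sorted, 24 h), 3 and 2 (RucLow and RucHigh over time). Without libraries under 2800 bases the counts were 2 (interaction), 9, 4 and 3 (over time), and without the 2 libraries of lowest total 9 and 3 (RucTotal and RucHigh over time). Leaving out 1 replicate gave 0 to 29 calls for RucTotal against Vehicle at 24 h, 0 to 26 for the interaction, 0 to 5 and 0 to 9 for sorted cells at 2 and 24 h, 0 to 10 for Vehicle over time, and 0 to 19, 0 to 7 and 0 to 9 for the rucaparib groups over time. SPC24 changed sign, to -0.40 (adjusted p = 0.046), under the block with the length covariate. The cause of these shifts was not tested.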
